A study of Homo sapiens with 9 samples.

Results

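Messenger RNA of 10 genes that report on the extracellular signal-regulated kinase (ERK) pathway was followed in HepG2 cells, an established human hepatoma line that keeps many hepatocyte functions. The genes were 5 feedback inhibitors (SPRY2, DUSP1, DUSP4, DUSP5 and DUSP6) and 5 transcription factors (EGR1, FOS, JUN, MYC and ETV5). They were picked by name. All 10 were on the array, among 11963 genes in all, through 20 probe sets whose annotation gives 1 of these symbols alone, of 22215 probe sets tested. The cells had been moved to medium with serum depleted of thyroid hormone and received 10 nM GC-1, 10 nM T3 or vehicle for 24 h, with 3 arrays a group and 9 in all. T3 is triiodothyronine, the active thyroid hormone. GC-1 (sobetirome) is a man-made agonist that prefers the beta form of the thyroid hormone receptor, and in it carbon groups stand where T3 carries its iodines. HepG2 is a single tumour line, and its RNA was taken from whole cultures, so a smaller share of expressing cells and a lower level per cell cannot be told apart. Nothing in the labels says whether the replicates of a group were separate cultures, and the p-values reflect no more than the differences among these arrays, possibly technical ones.

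Growth factor receptors pass their signal through RAS, RAF and MEK to ERK, which enters the nucleus and switches on immediate early genes such as FOS, EGR1, JUN and MYC soon after a stimulus, without new protein synthesis. ERK also induces its own brakes. Sprouty proteins such as SPRY2 act between the receptor and RAS, and dual specificity phosphatases (DUSPs) take the phosphates off ERK and related kinases. In hepatocytes the pathway serves growth factor responses and regeneration. Immediate early transcripts usually fall back after the first burst. The level at 24 h is that of a single late time point, and earlier levels were not measured.

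Promoter windows are printed for DUSP1, FOS and SPRY2, each with a probe set called with both ligands as defined below. That of EGR1, a classical growth factor target without a call, is printed too. Each runs from 250 bases before to 50 bases after the start site on the gene's strand and comes from RefSeq, build GRCh38.p14. The DUSP1 window is chr5:172771146-172771445, minus strand. The FOS window is chr14:75278578-75278877, plus strand. The SPRY2 window, which is the most upstream of 3 in the table, is chr13:80341077-80341376, minus strand. The EGR1 window is chr5:138465229-138465528, plus strand. Capitals mark matches on either strand to any of 7 searched motifs.
DUSP1: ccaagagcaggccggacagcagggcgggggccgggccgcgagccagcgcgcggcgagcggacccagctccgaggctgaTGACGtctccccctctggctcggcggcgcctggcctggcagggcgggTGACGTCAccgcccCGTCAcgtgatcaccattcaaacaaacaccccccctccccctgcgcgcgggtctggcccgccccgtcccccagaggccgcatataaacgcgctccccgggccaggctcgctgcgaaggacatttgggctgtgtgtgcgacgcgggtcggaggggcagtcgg
FOS: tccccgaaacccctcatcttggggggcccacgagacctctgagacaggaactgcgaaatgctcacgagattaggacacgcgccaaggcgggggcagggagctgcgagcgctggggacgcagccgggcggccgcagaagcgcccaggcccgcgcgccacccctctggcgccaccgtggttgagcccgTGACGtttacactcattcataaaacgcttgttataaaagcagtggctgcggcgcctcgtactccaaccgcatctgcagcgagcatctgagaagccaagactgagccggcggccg
SPRY2: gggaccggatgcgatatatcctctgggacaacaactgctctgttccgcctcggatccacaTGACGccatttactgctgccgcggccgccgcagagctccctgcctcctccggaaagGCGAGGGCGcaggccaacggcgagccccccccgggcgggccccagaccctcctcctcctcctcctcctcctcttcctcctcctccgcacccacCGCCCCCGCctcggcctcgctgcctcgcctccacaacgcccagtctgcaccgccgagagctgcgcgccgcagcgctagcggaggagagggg
EGR1: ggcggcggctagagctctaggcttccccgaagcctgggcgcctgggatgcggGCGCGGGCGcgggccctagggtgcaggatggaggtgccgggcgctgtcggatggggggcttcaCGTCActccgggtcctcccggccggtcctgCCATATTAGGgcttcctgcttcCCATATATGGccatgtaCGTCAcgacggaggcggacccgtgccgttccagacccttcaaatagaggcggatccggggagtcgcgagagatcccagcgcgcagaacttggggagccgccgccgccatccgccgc

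The motifs were AGGTCA, the core of thyroid hormone response elements, TGACGTCA and its shorter core TGACG, which bind cyclic AMP response factors, TGANTCA for AP-1, GCGNGGGCG for EGR proteins, CCGGAAG for ETS factors, and the CArG box of serum response factor. Windows of 6 members were searched (JUN and DUSP6 besides those printed). MYC and DUSP4 were left out by their chromosome, and DUSP5 and ETV5 had no window in the table. The shares over all windows left out no chromosome. AGGTCA stood in 0 of 6, against 13.8% of all 34796 windows. TGACG stood in 5 of 6, against 24.5% of all windows. DUSP1 alone of the 6 held the full TGACGTCA, present in 1.84% of all windows, at 125 to 118 bases before the start. That match includes 2 overlapping TGACG matches, and DUSP1 held TGACG at 2 further places. EGR1 alone of the 6 held CArG boxes, found in 1.30% of all windows, at 105 to 96 and 83 to 74 bases before the start. GCGNGGGCG stood in SPRY2 at 2 places and in EGR1 at 1, against 9.43% of all windows. TGANTCA (7.73% of all windows) and CCGGAAG (10.2%) stood in 0 of 6. A match says only that these letters are there. The serum response element known from FOS lies farther upstream than its window reaches.

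The arrays behaved alike in their medians, which ranged from 7.02 to 7.06 log2 units. T3 replicates 1 and 2 stood apart in the interquartile range of all signals, at 2.99 and 2.97 log2 units, while T3 replicate 3 stood at 2.88, GC-1 arrays at 2.83 to 2.85 and vehicle arrays at 2.87 to 2.88. Differences of the members between T3 and vehicle are therefore also given with this range as a covariate, without these arrays, or as a range over such fits. Known targets responded, with KLF9 at a mean of 7.43 with GC-1, 7.47 with T3 and 6.30 in vehicle. Of 8 hepatocyte markers FGB and APOB rose with T3 and FGB with GC-1, and the list's mean log2 signal was 13.6 to 13.7 with GC-1, 13.7 with T3 and 13.5 in vehicle. Of 11 markers of other cell types 0 were called with either ligand, and their mean log2 signal was 7.29 to 7.38 with GC-1, 7.18 to 7.38 with T3 and 7.22 to 7.33 in vehicle.

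The same 3 of the 20 probe sets were called with both ligands. All GC-1 calls, and the SPRY2 call with T3, were lost in several fits with 1 array left out, as given below. DUSP1, the nuclear phosphatase that takes phosphates off the stress kinases and ERK, and FOS, a subunit of AP-1, rose. SPRY2, the brake above RAS, fell. The remaining 17 probe sets were not called with either ligand, among them every probe set of DUSP4, DUSP5, DUSP6, EGR1, JUN, MYC and ETV5. Calls are an adjusted p under 0.05 in limma (Benjamini-Hochberg over all 22215 probe sets). With GC-1, 2 of 20 were higher and 1 lower, where 1.81% of all probe sets were higher and 0.986% lower. With T3, 2 of 20 were also higher and 1 lower, where 4.00% of all probe sets were higher and 1.50% lower. The ligand comparisons share the 3 vehicle arrays, so their likeness is not independent evidence. Over the 20 probe sets the median difference from vehicle was -0.02 log2 units with GC-1 and -0.04 with T3, against -0.004 and -0.015 over all probe sets.

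The bright DUSP1 probe set, 201041_s_at, had log2 signals of 9.33, 9.31 and 9.22 with GC-1, 9.61, 9.49 and 9.37 with T3, and 8.94, 8.92 and 9.00 in vehicle. All 6 ligand arrays lay above all 3 vehicle arrays, and all 3 T3 arrays lay above all 3 GC-1 arrays. The rise was 1.26-fold with GC-1 (log2 0.33 ± 0.06 SE, n = 3 a group, adjusted p = 0.0197, limma) and 1.45-fold with T3 (log2 0.54 ± 0.06, adjusted p = 0.000547). A second DUSP1 probe set, 201044_x_at, is of a type that can bind several transcripts and has no accession in the annotation. Its signals were 6.200 to 6.424 with GC-1, 6.305 to 6.561 with T3 and 6.052 to 6.404 in vehicle, and the groups overlapped. Its differences from vehicle were 0.05 (adjusted p = 0.863) with GC-1 and 0.20 (adjusted p = 0.270) with T3 (0.10 with the interquartile range as a covariate), so the DUSP1 calls rest on 1 of its 2 probe sets. Averaged over both, DUSP1 had 0.19 with GC-1 (adjusted p = 0.191) and 0.37 with T3 (adjusted p = 0.0115), which ends the GC-1 call. The GC-1 call was also lost without any 1 of the vehicle arrays or without GC-1 replicate 1 or 2 (adjusted p = 0.0536 to 0.0907).

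FOS, measured by 1 probe set, 209189_at, had log2 signals of 6.98, 7.003 and 6.92 with GC-1, 7.19, 7.10 and 6.96 with T3, and 6.54, 6.72 and 6.54 in vehicle. Every ligand array lay above every vehicle array, and the GC-1 and T3 arrays overlapped. The rise was 1.29-fold with GC-1 (log2 0.37 ± 0.07, n = 3 a group, adjusted p = 0.0193, limma) and 1.40-fold with T3 (log2 0.48 ± 0.07, adjusted p = 0.00248). The GC-1 call was lost without vehicle replicate 1 or 3 or without any 1 of the GC-1 arrays (adjusted p = 0.0508 to 0.0945), with differences of 0.34 to 0.39. In DUSP1 and FOS the T3 arrays of larger interquartile range were also the higher ones. With that range as a covariate the T3 differences were 0.42 for DUSP1 (adjusted p = 0.0109) and 0.34 for FOS (adjusted p = 0.0339), still called. Without T3 replicates 1 and 2 they were 0.42 and 0.36, with 1 T3 array left and its spread taken from GC-1 and vehicle. Those 2 arrays are the ones of larger range, so this fit is no separate check on the covariate fit.

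SPRY2, also with 1 probe set, 204011_at, had log2 signals of 7.35, 7.35 and 7.41 with GC-1, 7.33, 7.54 and 7.38 with T3, and 7.73, 7.75 and 7.62 in vehicle. Every ligand array lay below every vehicle array, T3 replicate 2 closest to them, and the ligands overlapped. The fall was 1.26-fold with GC-1 (log2 -0.33 ± 0.06, n = 3 a group, adjusted p = 0.0188, limma) and 1.22-fold with T3 (log2 -0.29 ± 0.06, adjusted p = 0.0253). The T3 call was lost without vehicle replicate 1 or 2 or T3 replicate 1 or 3 (adjusted p = 0.0554 to 0.0972, limma). It was also lost with the covariate (-0.32, adjusted p = 0.0574) and in a fit of T3 and vehicle arrays alone (0.0674). Without T3 replicates 1 and 2, which leaves 1 T3 array, the difference was -0.33. The GC-1 call was lost without vehicle replicate 1 or 2 or any 1 of the GC-1 arrays (adjusted p = 0.0536 to 0.0911).

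The mean of both ligands, which draws on 6 ligand arrays, called the same 3 probe sets, 2 higher and 1 lower, where 3.63% of all probe sets were higher and 1.90% lower. DUSP1 stood at 0.44 ± 0.06 (adjusted p = 0.000857, limma), FOS at 0.43 ± 0.06 (adjusted p = 0.00211) and SPRY2 at -0.31 ± 0.06 (adjusted p = 0.00711). Of these calls 1 was lost when single arrays were left out, that of SPRY2 without vehicle replicate 2 (adjusted p = 0.0518).

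**Figure D1:**
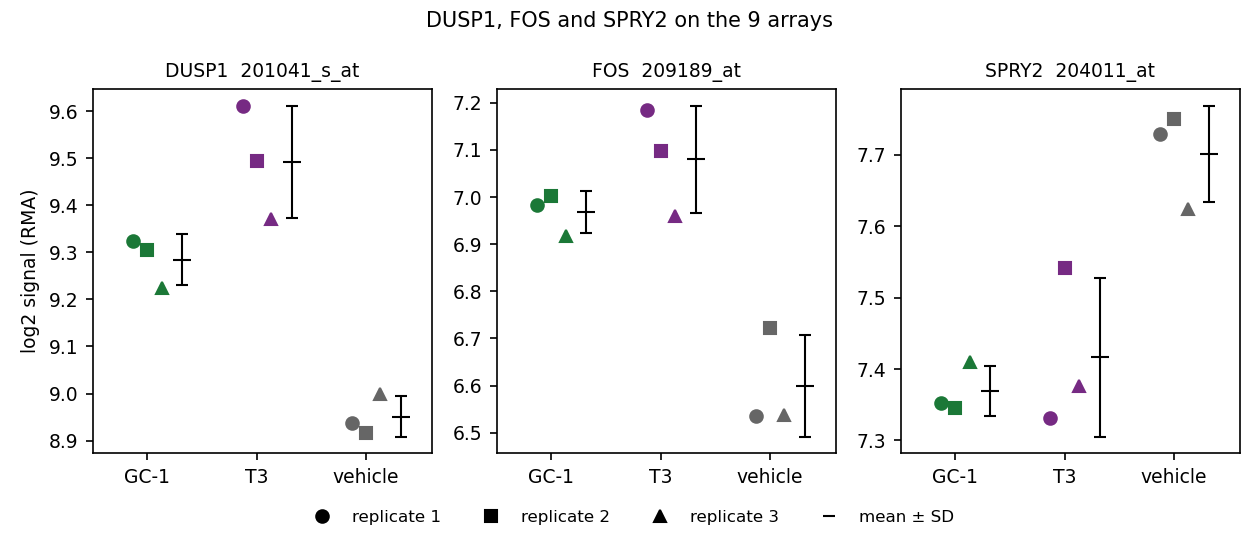
Log2 signal (RMA) on each of the 9 arrays for DUSP1 201041_s_at, FOS 209189_at and SPRY2 204011_at, by group, with a marker shape for each replicate number and the mean ± SD beside it. DUSP1 and FOS lie higher on all 6 GC-1 and T3 arrays than on the 3 vehicle arrays, and SPRY2 lies lower, with SPRY2 at 7.33 to 7.54 on T3 arrays and 7.62 to 7.75 on vehicle arrays.

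Among the other phosphatases, none was called. DUSP6, the cytoplasmic phosphatase specific for ERK, had 3 probe sets at 10.94 to 11.36 log2 units on all 9 arrays. Their differences from vehicle were -0.08 to -0.004 with GC-1 and -0.10 to -0.06 with T3. The T3 arrays of 208891_at and 208893_s_at lay below all vehicle arrays, by small amounts (-0.08, adjusted p = 0.423, and -0.10, adjusted p = 0.374). DUSP5, a nuclear phosphatase specific for ERK, differed by 0.12 with GC-1 (adjusted p = 0.633) and 0.05 with T3 (adjusted p = 0.838). Its GC-1 arrays spread most, at 7.38, 6.96 and 7.15. DUSP4, another nuclear phosphatase, had 2 probe sets with means of 4.27 and 5.77. Both lay under the cutoff of 6.20 below which probe sets were taken as dim, and RMA compresses changes there. They differed by 0.12 and -0.04 with GC-1 and by -0.0003 and -0.11 with T3.

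EGR1, a zinc finger factor that ERK induces through serum response factor, showed no called change. Probe set 201694_s_at had 8.74, 8.76 and 8.95 with GC-1, 8.82, 9.01 and 8.45 with T3, and 8.78, 8.72 and 8.77 in vehicle. The vehicle arrays lay close together, while the T3 arrays, with replicate 3 lowest, spanned a wider range than any group in the other member probe sets. The differences were 0.06 with GC-1 (adjusted p = 0.863) and 0.002 with T3 (adjusted p = 0.995), with 95% intervals of -0.19 to 0.31 and -0.25 to 0.26. The T3 value of 201694_s_at turns on which arrays are used. It was -0.30 with the interquartile range as a covariate (adjusted p = 0.122, limma), -0.31 without T3 replicates 1 and 2 (adjusted p = 0.0682) and 0.16 without T3 replicate 3 (adjusted p = 0.258), none of them called. The other EGR1 probe set, 201693_s_at, differed by 0.02 with GC-1 and -0.05 with T3, and T3 stood at 0.05 with the covariate and 0.02 without T3 replicates 1 and 2.

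JUN, the partner of FOS in AP-1, was covered by 4 probe sets, none of them called. They differed from vehicle by -0.08 to 0.01 with GC-1 and by -0.04 to 0.17 with T3. In 201465_s_at the T3 arrays, at 7.03 to 7.13, lay above the vehicle arrays, at 6.82 to 7.02 (0.17, adjusted p = 0.227). In 201466_s_at all GC-1 arrays, at 6.39 to 6.50, lay below all T3 arrays, at 6.55 to 6.83, and vehicle lay between and overlapped both. Over all probe sets of DUSP4, DUSP5, DUSP6 and JUN, T3 minus vehicle ran from -0.15 to 0.22 with the interquartile range as a covariate and from -0.15 to 0.20 without T3 replicates 1 and 2, with 0 called in either fit and with the sign turned in DUSP4 204015_s_at and DUSP6 208892_s_at in both.

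ETV5, an ETS factor whose transcription follows growth factor signals, had 3 probe sets, and in each all 3 GC-1 arrays lay below all 3 vehicle arrays. In 203348_s_at the log2 signals were 8.53, 8.59 and 8.77 with GC-1, 8.99, 8.93 and 8.48 with T3, and 8.80, 8.90 and 8.84 in vehicle. T3 replicate 3 stood with the GC-1 arrays and T3 replicates 1 and 2 above the vehicle arrays. The differences were -0.22 with GC-1 (adjusted p = 0.400) and -0.05 with T3 (adjusted p = 0.850), and neither passed. In 203349_s_at the differences were -0.09 with GC-1 and -0.04 with T3, and in 216375_s_at -0.24 (adjusted p = 0.225) and -0.10. T3 replicate 3 was the lowest of all 9 arrays in each of the 3.

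MYC, a growth-promoting factor, had log2 signals of 10.77, 10.80 and 10.85 with GC-1, 10.91, 10.98 and 10.71 with T3, and 10.94, 11.05 and 10.94 in vehicle in its probe set 202431_s_at. The GC-1 arrays lay below all vehicle arrays, and T3 replicate 3 was the lowest of the 9. The differences were -0.17 with GC-1 (adjusted p = 0.263) and -0.11 with T3 (adjusted p = 0.414). These T3 values turn on which arrays are used. With the interquartile range as a covariate, T3 minus vehicle was -0.40 for ETV5 203348_s_at (adjusted p = 0.0165) and -0.27 for MYC (adjusted p = 0.0423). With T3 replicates 1 and 2 left out, T3 minus vehicle was -0.37 for ETV5 203348_s_at (adjusted p = 0.0482) and -0.26 for MYC (adjusted p = 0.0586), fits in which the spread of the lone T3 array is taken from GC-1 and vehicle. Without T3 replicate 3, ETV5 203348_s_at stood at 0.11 and MYC at -0.03. With the covariate the other ETV5 probe sets were not called in T3 minus vehicle (-0.14 for 203349_s_at and -0.28 for 216375_s_at). Without T3 replicates 1 and 2 they stood at -0.14 and -0.29. In the mean of the ligands, MYC and ETV5 203348_s_at were uncalled in the main fit but called lower in 2 of 17 alternatives. ETV5 216375_s_at was called lower in 1. These were the covariate fit and the fit with the lone T3 array, the latter alone for 216375_s_at.

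**Figure D2:**
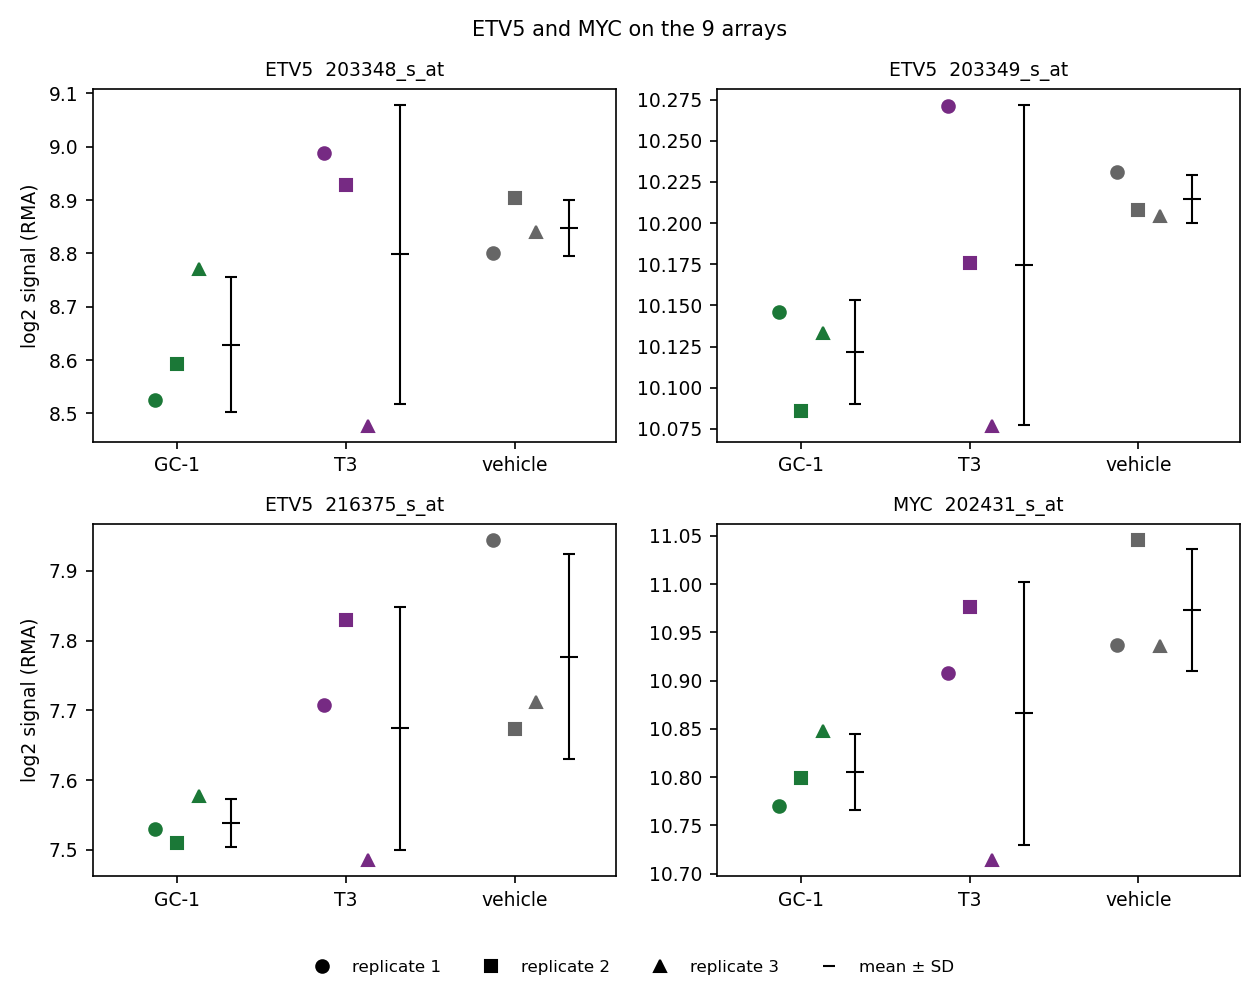
Log2 signal (RMA) on each of the 9 arrays for the 3 probe sets of ETV5 and the 1 of MYC, by group, with a marker shape for each replicate number and the mean ± SD beside it. The 3 GC-1 arrays lie below the 3 vehicle arrays in all 4 panels, and T3 replicate 3 is the lowest array in each.

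Groups that do not overlap were counted over all members. The GC-1 and vehicle arrays did not overlap in 7 of 20 probe sets, against 26.5% of all probe sets. The T3 and vehicle arrays did not overlap in 6 of 20, against 24.9% of all. These shares are near those of the whole array, so separation of the arrays by itself sets no member apart.

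GC-1 and T3 were then compared directly at the matched dose and time, the 1 pair of compounds in the study. No member passed in limma (0 of 20, where 0% of all probe sets were called). The array groups did not overlap in 4 of 20 probe sets, against 18.0% of all. The bright DUSP1 probe set had the smallest p, with GC-1 lower by a log2 difference of -0.21 (95% interval -0.35 to -0.07, adjusted p = 0.238, limma). That difference became -0.27 without T3 replicate 3 (adjusted p = 0.0549) and -0.09 without T3 replicates 1 and 2. Next came the JUN probe sets 201466_s_at (-0.20, interval -0.36 to -0.03, adjusted p = 0.292, limma) and 201465_s_at (-0.17, interval -0.34 to -0.01, adjusted p = 0.343). FOS differed by -0.11 (interval -0.27 to 0.04) and SPRY2 by -0.05 (interval -0.19 to 0.09). The widest interval was that of ETV5 203348_s_at, -0.43 to 0.09, which turns positive (0.33) with the interquartile range as a covariate. The intervals leave room for differences as large as their bounds, and the missing calls do not show that the compounds act alike on these genes.

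**Figure D3:**
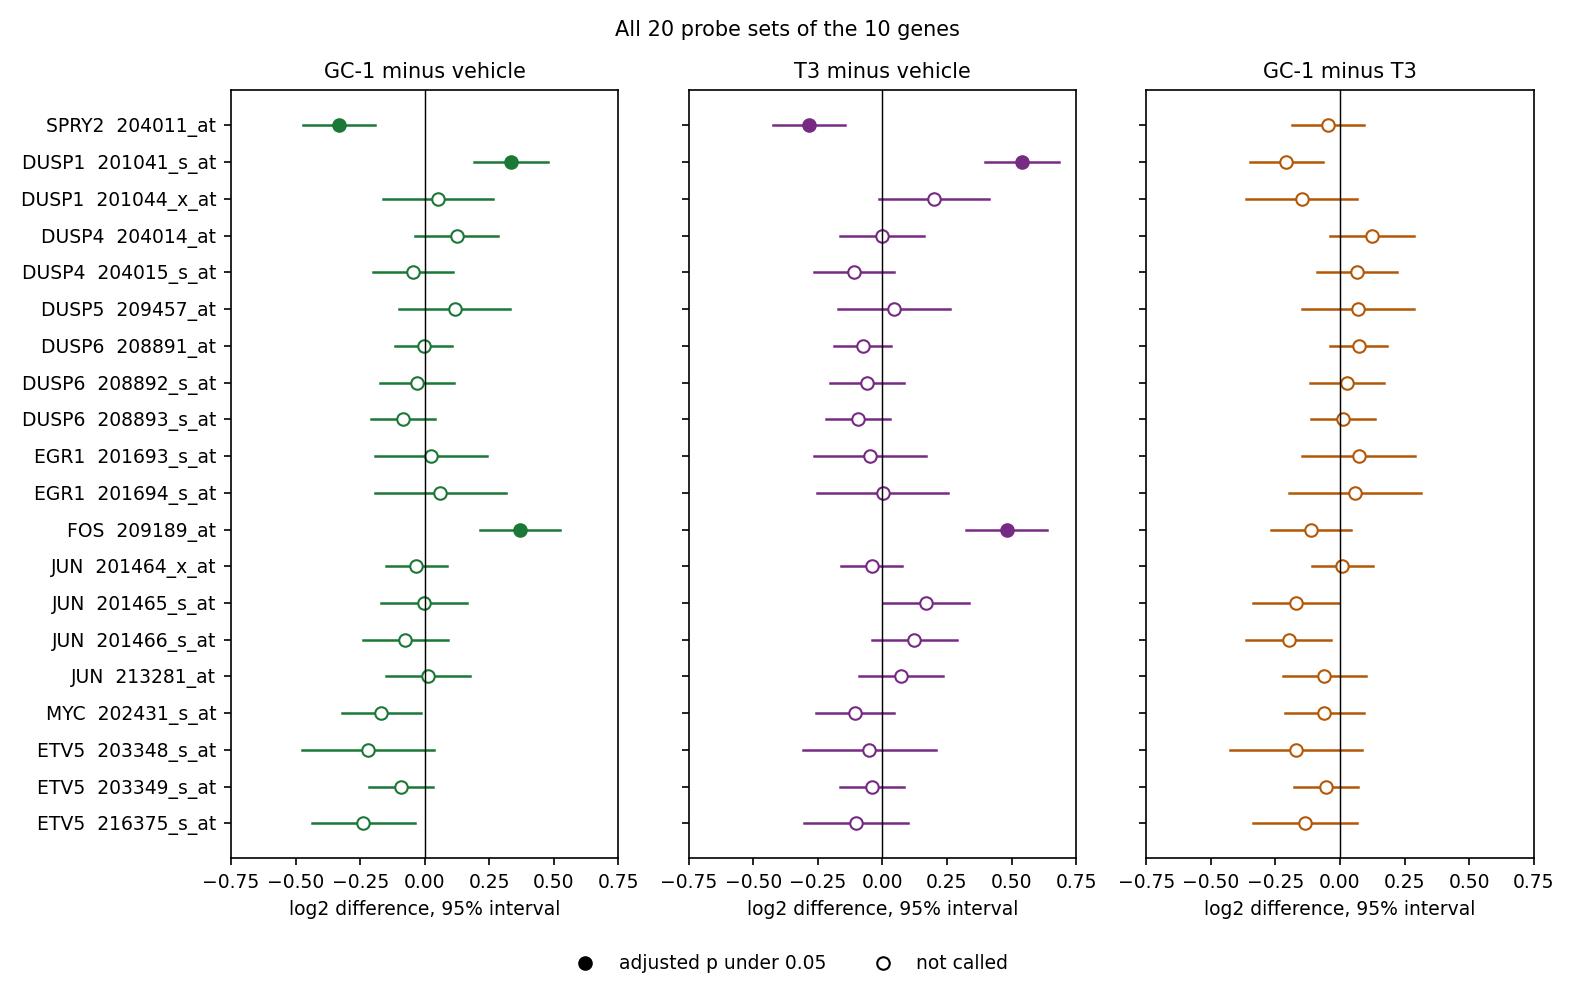
Log2 differences with 95% intervals for all 20 probe sets of the 10 genes, in panels for GC-1 minus vehicle, T3 minus vehicle and GC-1 minus T3. Filled points are called at an adjusted p under 0.05. They are DUSP1 201041_s_at, FOS 209189_at and SPRY2 204011_at in each of the panels against vehicle, and none in the panel of GC-1 minus T3.

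The genes outside the members whose 9-array pattern lay closest were ranked by the root mean square difference of log2 signals, each taken from its own vehicle mean. FOS was nearest to HIVEP2 (0.033), followed by GBP2 (0.059) and HGD (0.063). DUSP1 201041_s_at was nearest to EPAS1 (0.053), PHF21A (0.063) and ZMIZ1 (0.064). SPRY2 was nearest to SLC1A4 (0.065), FAIM (0.067) and KHDRBS3 (0.068). With so many probe sets some will lie close to any pattern, and these distances say nothing of shared function.

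Of 111 other genes of the pathway, listed by role and each taken by its brightest probe set, 94 were measured. With GC-1, 5 rose and 0 fell, where 2.10% of genes were higher and 1.16% lower over all 11963 genes. With T3, 13 rose and 4 fell, where 4.51% of genes were higher and 1.71% lower. The median difference over the 94 was 0.01 with GC-1 and 0.02 with T3. These counts rest on single arrays. With 1 array left out they were 1 to 6 higher and 0 to 2 lower with GC-1, and 5 to 12 higher and 0 to 6 lower with T3, the fewest with vehicle replicate 3 left out (1 higher with GC-1, 5 higher and 0 lower with T3). Of the 17 genes called with T3, FGFR3, SHC1, PEBP1 and MAFF kept the call in all 18 alternatives, and the other 13 lost it in 1 to 13 of them.

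Of 9 pathway ligands measured, 0 passed with GC-1 and 2 fell with T3, each in 1 of 3 probe sets. TGFA and HBEGF, both ligands of the epidermal growth factor receptor, stood at -0.15 and -0.16 with GC-1, and fell by 0.32 (adjusted p = 0.0198) and 0.22 (adjusted p = 0.0376) with T3. HBEGF lost its T3 call in 13 of 18 alternatives and TGFA in 4. The other 7 ligands, EGF, EREG and BTC among them, did not pass. Of 10 receptors, 1 rose with GC-1 and 4 with T3. FGFR3, a fibroblast growth factor receptor, rose by 0.31 with GC-1 (adjusted p = 0.00520) and 0.44 with T3 (adjusted p = 0.000279), and it kept both calls in all 18 alternatives. ERBB3 (0.25), FGFR2 (0.29) and the insulin receptor INSR (0.22) rose with T3, with GC-1 differences of 0.16, 0.11 and 0.19. They lost their T3 calls in 12, 9 and 10 of 18 alternatives. Of FGFR2 1 of 10 probe sets passed with T3, and the 10 ranged from -0.22 to 0.29.

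Of 9 adaptors and exchange factors, 2 rose with each ligand. SHC1, which couples receptors to RAS, rose by 0.24 with GC-1 (adjusted p = 0.0169) and 0.29 with T3 (adjusted p = 0.00378). IRS1, the docking protein of the insulin receptor, rose by 0.29 with GC-1 (adjusted p = 0.0221) and 0.35 with T3 (adjusted p = 0.00435). None of the 8 measured core genes between RAS and ERK and its substrate kinases passed, and MAP2K1, which encodes a MEK, came closest in the ligand mean (0.11 with GC-1, 0.13 with T3).

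Of 14 genes listed as other inhibitors, 1 rose with GC-1 and 3 with T3. PEBP1, which binds and restrains RAF, rose by 0.34 with GC-1 (adjusted p = 0.0130) and 0.33 with T3 (adjusted p = 0.00784), and all 3 of its probe sets passed with each ligand. SPRED2, a relative of the Sprouty proteins, and IER3 rose with T3, by 0.21 and 0.23, and each lost the call in 12 of 18 alternatives. IER3 was put in this list by name, and whether it restrains the pathway was not tested.

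Of 23 other immediate early genes, 1 rose with GC-1 and 2 with T3. MAFF, a small MAF factor, rose by 0.24 with GC-1 (adjusted p = 0.0288) and 0.35 with T3 (adjusted p = 0.00239), in both of its probe sets. KLF6 rose by 0.23 with T3 in 1 of 3 probe sets. FOSL1, a relative of FOS, stood at -0.25 with GC-1 and -0.30 with T3 and fell in the ligand mean (-0.27, adjusted p = 0.0392). Of 14 ETS factors and other output genes, 0 passed with GC-1, while with T3 ELF3 rose (0.28) and ELK3 (-0.36) and PHLDA1 (-0.25) fell. With T3, 2 of 5 PHLDA1 probe sets fell, the lowest value being -0.39. With GC-1, 1 of 5 fell, not the brightest, and the lowest value was -0.36. Of 7 partners and relatives of MYC, 1 passed with T3, the antagonist MXI1 (0.21, adjusted p = 0.0447, limma). KLF6, ELF3, ELK3, PHLDA1 and MXI1 lost their T3 calls in 9, 6, 11, 6 and 13 of the 18 alternatives. The GC-1 calls of SHC1, IRS1, PEBP1 and MAFF were lost in 6, 7, 4 and 6 of the 18 alternatives, nearly all of them with 1 array left out. In TGFA, HBEGF, ERBB3, FGFR2, FGFR3, INSR, SHC1, SPRED2, KLF6, ELK3 and ELF3, 1 probe set passed with T3 and the other probe sets of the gene did not. As in FGFR2, an uncalled probe set pointed the other way in ERBB3 (-0.125), KLF6 (-0.19) and SPRED2 (-0.07). The rest of these genes kept 1 direction with T3.

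**Figure D4:**
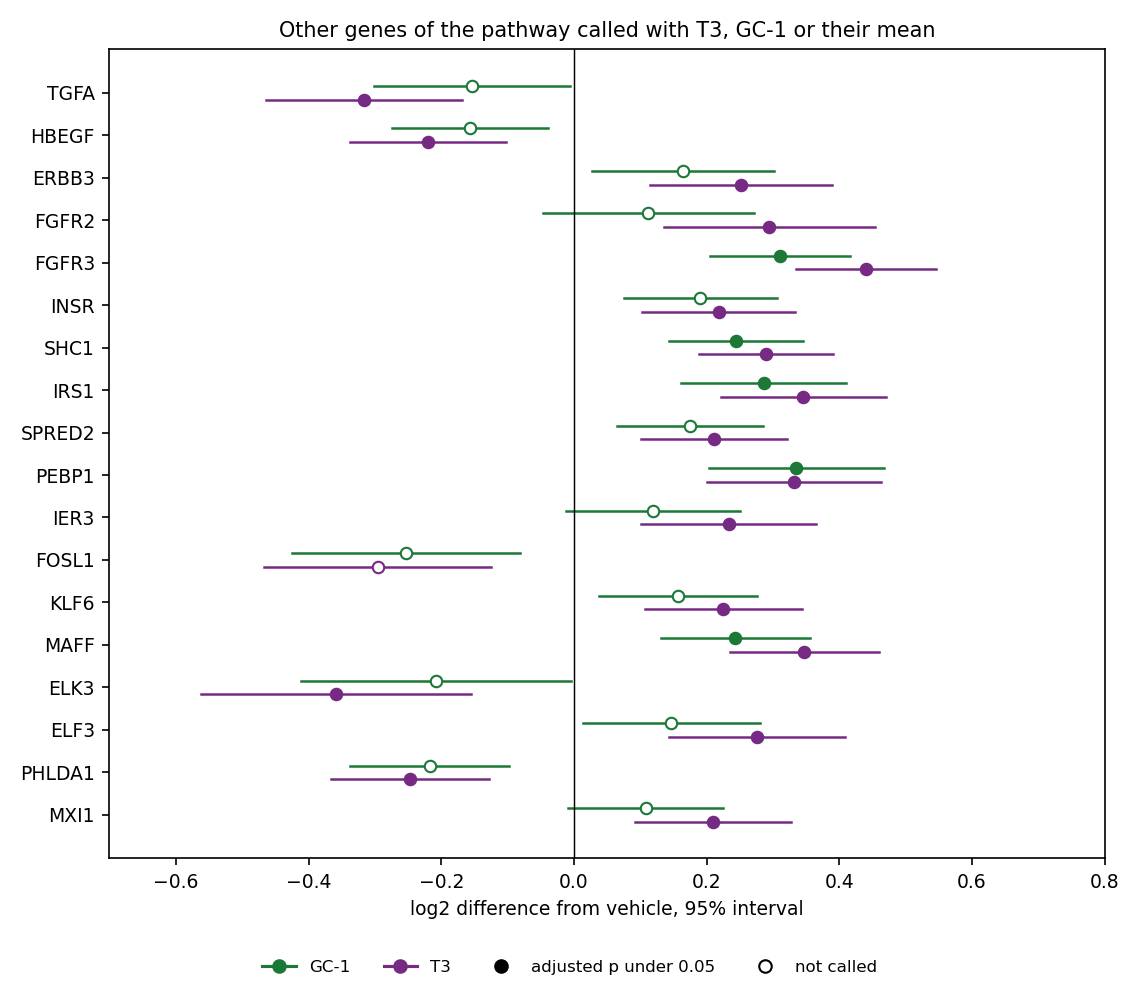
Log2 differences from vehicle with 95% intervals for the 18 other pathway genes called with T3, GC-1 or their mean, in the order of the lists, GC-1 above T3 in each row. Filled points are called at an adjusted p under 0.05. FGFR3, SHC1, IRS1, PEBP1 and MAFF are filled for both ligands.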

How the data were processed

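The authors deposited a log2 signal for each probe set on each array. The submitters' processing notes name RMA, which corrects background, normalizes by quantiles and summarizes probes. Version and log base are not given in the sources used here, and the base was taken from the range of the values. RMA compresses changes of dim probe sets. No scanner files were used, so detection and batches were not examined, and 3 arrays a group set the precision.

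Of 22277 probe sets 62 array controls were left out. The annotation gave 1 symbol for 19064 of the other 22215, several for 1043 and none for 2108. Groups came from the sample titles. A single linear model with a mean for each group was fitted to the 9 arrays (limma 3.58.1, functions lmFit and eBayes, R 4.3.3), and its two-sided p-values were adjusted by the Benjamini-Hochberg method across the 22215 probe sets. The fit was tested on simulated data. For T3 against vehicle over 22215 simulated probe sets it recovered 44.8% of changes of 0.3 log2 units, 85.1% of 0.5 and 98.5% of 1. Only 67, 67 and 66 probe sets carried these changes, whereas 888 higher and 334 lower were called with T3 in the data. The adjustment depends on how many change, so these shares do not give the share of real changes found.

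Same-numbered arrays did not deviate together (correlations of -0.26 to 0.08), so the numbers were not used as pairs. The members, the lists and the alternatives were chosen with earlier results of these data known. All members are named, as are other listed genes that passed in a ligand comparison or, where none did, the one with the smallest p.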

Additional observations from a re-analysis of the deposited data

How the results depend on the processing

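Leaving out 1 array gave 0 to 3 called member probe sets with GC-1 (main count 3), 2 to 3 with T3 (3) and 2 to 3 for the mean of the ligands (3). The GC-1 count was 0 without vehicle replicate 1 or GC-1 replicate 1 or 2, and 1 without vehicle replicate 2 or 3 or GC-1 replicate 3. The count for the mean became 5 with the interquartile range as a covariate and 6 with T3 replicates 1 and 2 left out, a setting chosen after seeing the data. GC-1 minus T3 stayed at 0 members in all settings. Uncalled member values changed sign in 89 cases, 0 of them with a call in either fit.

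Among other pathway genes, T3 had 13 higher and 4 lower. The counts were 8 higher after quantile normalization, 5 and 0 with only T3 and vehicle arrays, 8 lower with the covariate, and 7 and 8 without T3 replicates 1 and 2. With GC-1, 5 were higher and 0 lower, against 8 and 1 with trend and robust, 1 lower with dim probe sets left out, 3 lower with array weights, 2 lower with GC-1 and vehicle arrays alone, and 2 lower without T3 replicates 1 and 2. The mean of the ligands had 10 higher and 4 lower, against 8 lower with the covariate and 7 lower without T3 replicates 1 and 2. With 1 array left out the T3 counts were 5 to 12 and 0 to 6, GC-1 1 to 6 and 0 to 2, the mean 5 to 10 and 0 to 5, and GC-1 minus T3 0 to 1 and 0 to 2, all of the last without T3 replicate 3.

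A replicate block, for numbers that did not pair the arrays, changed no member call (DUSP1 adjusted p = 0.0422 with GC-1 and 0.00214 with T3, limma). It gave 2 higher pathway genes with GC-1, 5 higher and 0 lower with T3, and 5 higher and 1 lower for the mean.

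Over all probe sets the lower calls with T3 numbered 334, against 670 with trend and robust, 156 with 2 groups, 171 with the block, 1152 with the covariate and 980 without T3 replicates 1 and 2. GC-1 had 403 higher and 219 lower, against 653 and 694 with trend and robust, 706 and 729 with array weights and 264 and 83 with the block. Its lower calls were 428 with dim probe sets left out and 539 both with 2 groups and without T3 replicates 1 and 2. The mean had 422 lower, against 678 with dim probe sets left out, 932 with trend and robust, 681 with array weights, 189 with the block, 1458 with the covariate and 1402 without T3 replicates 1 and 2. GC-1 minus T3 had 0, against 6 higher and 16 lower with trend and robust and 157 and 181 without T3 replicate 3. With 1 array left out, GC-1 had 214 to 602 higher and 54 to 670 lower, T3 543 to 926 and 112 to 430, and the mean 454 to 871 and 125 to 534, so the shares of all probe sets set beside the members move too. The GC-1 counts fell by over 1.5 times without any 1 of the GC-1 or vehicle arrays, and its lower calls were 670 without T3 replicate 3. The T3 counts and those of the mean fell as far without any 1 of the vehicle arrays, the T3 counts also without T3 replicate 1 (589 and 190), the T3 lower calls also without GC-1 replicate 2 (209), and the lower calls of the mean also without any 1 of the GC-1 arrays (217 to 265). The causes were not tested. With 3 arrays a group, small changes can be missed.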
